A study of Homo sapiens with 16 samples.

Results

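The 10 genes described here belong to the BCL2 family of apoptosis regulators and were followed in cells depleted of the RNA-binding protein HNRNPH1, with attention to the long and short splice forms of BCL2L1 and MCL1. The members were BCL2L1, MCL1, BCL2, BCL2L2, BCL2L11, BCL2L12, BAK1, BAD, BID and BOK. All rows of the deposited transcript tables that carry one of these symbols were taken, which gave 10 of 61906 genes and 106 of 251295 transcripts. The study used 2 established human lines, HEK-293T (derived from embryonic kidney and expressing SV40 large T antigen) and HT-1080 (from a fibrosarcoma). Cells of each line received 20 nM of an siRNA against HNRNPH1 (siHNRNPH1) or a negative control siRNA (siNegative), and RNA was taken 48 h later. Short-read RNA-seq covered 3 biological replicates in each of the 4 groups, and full-length cDNA sequencing (IsoSeq) covered 1 pool of replicates per group. The sequences of the siRNAs are not given in the sources used here. In these bulk libraries, a shift in the make-up of the cell population and a change in RNA per cell cannot be told apart.

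BCL2 family proteins set the threshold at which the outer mitochondrial membrane is opened in apoptosis. BCL2, BCL-xL (from BCL2L1), MCL-1 and BCL-w (from BCL2L2) hold back pore-forming effectors such as BAK. BH3-only proteins such as BIM (from BCL2L11), BAD and BID act against the protective members or on the effectors. Alternative splicing changes the sign of some of these genes. A downstream 5′ splice site of BCL2L1 gives BCL-xL and an upstream one in the same exon gives the short, death-promoting BCL-xS, and proteins of the HNRNPH/F family are known to act on that choice. Skipping of the middle exon of MCL1 likewise gives a short form that promotes death.

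HNRNPH1 itself was lower after its siRNA in every library. Its level in CPM (expected counts of the gene, scaled to a common library total) was 1107, 1105 and 1121 in HEK-293T siNegative replicates 1 to 3 and 234, 376 and 394 with siHNRNPH1. In HT-1080 it was 635, 606 and 617 against 231.5, 231.0 and 228.5 CPM. Library totals were 107.7 M to 121 M expected counts in HEK-293T and 27.3 M to 32.65 M in HT-1080. HEK-293T siHNRNPH1 replicate 1 stood apart from replicates 2 and 3 of its group, with Pearson r of 0.929 and 0.922 across 14416 genes where replicates 2 and 3 correlated at 0.998. HEK-293T gene changes and usage tests below are therefore given with and without it, and per-library values show it as the first siHNRNPH1 value. Of the markers looked up for the lines, PAX2, SOX2 and LIN28B were higher in HEK-293T (1.34, 10.99 and 178 CPM in siNegative, against 0.394, 0 and 23.3 in HT-1080), and VIM, CD44, LGALS1, S100A6, CAV1 and FN1 were higher in HT-1080. LHX1, listed for HEK-293T, was at 3.84 CPM there and at 13.4 in HT-1080 siNegative. The blood markers PTPRC, HBB, CD3E and MS4A1 stood at a mean of 0.132 CPM or less in every group.

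Across the members, HT-1080 showed 8 changed genes of 10 and HEK-293T showed none in the full set of libraries. In HT-1080, BCL2L1 and BCL2L2 rose and BCL2, MCL1, BAK1, BAD, BID and BCL2L12 fell (edgeR quasi-likelihood test, Benjamini-Hochberg adjusted p under 0.05 over all genes). This share lies near the background, since 65.3% of the 16145 genes tested in that line changed. The median log2 fold change of the members was -0.27, beside 0.01 over all genes. In HEK-293T, 0 of 10 members passed the same test where 10.0% of 19966 genes did. A single member, BCL2L2, had an unadjusted p under 0.05 there, and DESeq2 also called 0. The members' median was 0.06, beside 0.02 over all genes. Without siHNRNPH1 replicate 1, 6 of 10 members passed in HEK-293T, again near the 61.8% of all genes that did: BCL2L11, BID and MCL1 were higher and BAK1, BCL2L12 and BCL2L2 lower.

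**Figure D1:**
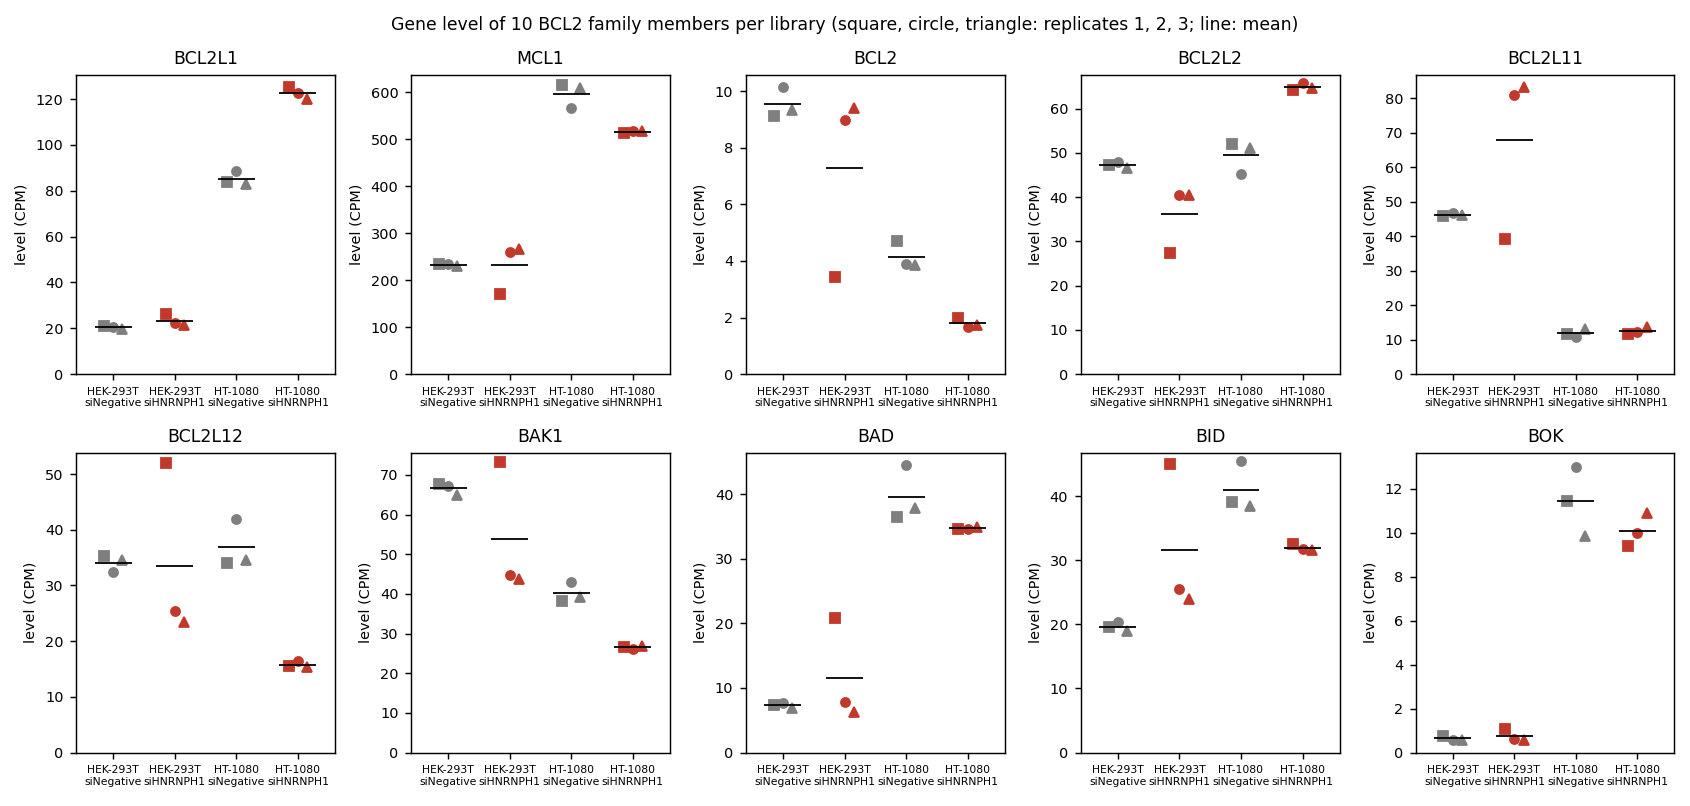
Level of each member in CPM (vertical axes, starting at 0) in the 12 short-read libraries; grey marks are siNegative, red marks siHNRNPH1, and lines are group means. In HEK-293T the square for siHNRNPH1 replicate 1 sits away from the circle and triangle of its group for most members, while the HT-1080 siHNRNPH1 marks lie close together for most members and the siNegative circle (replicate 2) is often the highest or lowest of its group.

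BCL2L1, the source of the protective BCL-xL, was higher after siHNRNPH1 in HT-1080. Its level there was 83.7, 88.7 and 82.8 CPM with siNegative and 125.4, 122.8 and 120.2 CPM with siHNRNPH1, so the groups did not overlap. The log2 fold change was 0.46 (SE 0.05, adjusted p = 1.77e-05, edgeR). In HEK-293T the level was 21.25, 20.55 and 19.9 CPM with siNegative and 26.15, 22.1 and 21.4 CPM with siHNRNPH1. All 3 siHNRNPH1 libraries were above all 3 controls, yet the change of 0.15 (SE 0.14) did not pass the test (adjusted p = 0.535, edgeR), and without replicate 1 it was 0.02 (adjusted p = 0.678). The 4 group means were ordered as HT-1080 siHNRNPH1 (122.8 CPM), HT-1080 siNegative (85.1), HEK-293T siHNRNPH1 (23.2) and HEK-293T siNegative (20.6), and no neighbours in that order overlapped. The 2 lines were counted in separate tables and were set on one scale here by library total alone.

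The choice between the BCL2L1 forms did not move beyond the spread between libraries in either line. The tables list Ensembl identifiers only, and the names of forms are general knowledge: ENST00000376055 for BCL-xS and ENST00000307677 for the main BCL-xL transcript. In HT-1080, BCL-xS held 8.25%, 9.19% and 6.002% of the gene in siNegative libraries and 3.55%, 5.49% and 7.14% with siHNRNPH1. These ranges overlapped, and the means of 7.81% ± 1.64 and 5.39% ± 1.79 (SD, n = 3) differed by -2.42 percentage points (two-sided exact permutation test, p = 0.2, where the smallest possible value with 3 against 3 is 0.1). Leaving out 1 library at a time gave differences from -3.33 to -1.50, the latter without siHNRNPH1 replicate 1. Taken over BCL-xS and the main BCL-xL transcript alone, the short form held 14.5%, 17.5% and 11.8% against 6.16%, 11.05% and 12.4% (exact permutation p = 0.2). In HEK-293T the short form was scarce, at 1.085%, 2.38% and 0% with siNegative and 0%, 0.596% and 1.84% with siHNRNPH1 (exact permutation p = 0.8). Its expected counts there were 0 to 56.8 per library, against at least 130 and up to 246 in HT-1080, so the HEK-293T shares rest on few reads. Percents of expected counts are not corrected for transcript length, and RSEM divides reads between overlapping forms by estimation.

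The main BCL-xL transcript rose with the gene in HT-1080. ENST00000307677.5 increased there by 0.63 on the log2 scale (SE 0.09, adjusted p = 0.007225, edgeR on transcripts). Its share of the gene, 48.5%, 43.2% and 44.7% with siNegative and 54.1%, 44.1% and 50.2% with siHNRNPH1, overlapped between groups (limma diffSplice adjusted p = 0.930). In HEK-293T the largest share belonged to another transcript, ENST00000439267.2, with 36.4%, 34.8% and 30.9% against 23.65%, 32.6% and 27.2%. There ENST00000307677.5 held 17.3%, 17.1% and 20.7% with siNegative and 11.4%, 14.2% and 16.3% with siHNRNPH1, without overlap but also without a call (diffSplice adjusted p = 0.801). ENST00000420488.6 went the other way in HEK-293T, from 14.4%, 7.14% and 10.6% to 28.4%, 15.2% and 16.9% (diffSplice adjusted p = 0.5115). Without replicate 1 these HEK-293T values were 0.552 and 0.2955. Usage of BCL2L1 transcripts as a whole was not called in HEK-293T (adjusted p = 0.675, or 0.459 without replicate 1) or HT-1080 (0.260).

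**Figure D2:**
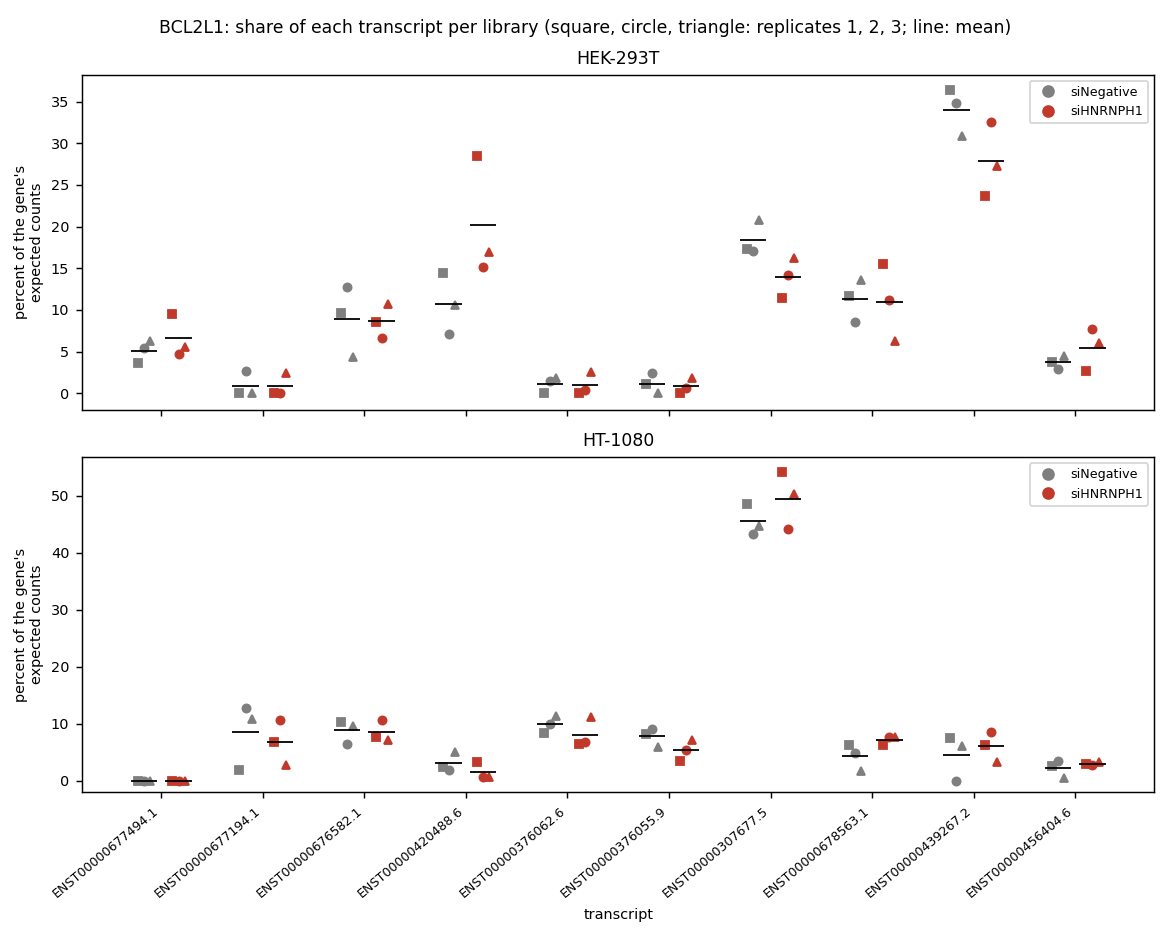
Share of BCL2L1 expected counts held by each named transcript (vertical axes, percent) in HEK-293T (upper panel) and HT-1080 (lower panel); grey is siNegative, red is siHNRNPH1, marks are replicates and lines are means. The short form ENST00000376055.9 lies between 0% and 2.38% in HEK-293T and between 3.55% and 9.19% in HT-1080, with overlapping ranges for both siRNAs.

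Full-length models showed the same 2 splice sites of BCL2L1 directly. On the minus strand of chromosome 20, the models used a BCL-xL donor at position 31721655 and, 189 bases upstream in the same exon, a BCL-xS donor at 31721844, both joined to an acceptor at 31666086. These positions are those in the IsoSeq files, which name no build, and GRCh38.p13 is the build in the submitters' processing notes. In HT-1080, the upstream donor occurred in 1 of 16 models with either junction in the siNegative pool (6.25%, exact Clopper-Pearson 95% interval 0.158% to 30.2%) and in 1 of 17 in the siHNRNPH1 pool (5.88%, 0.149% to 28.7%). In HEK-293T it occurred in 0 of 4 models (interval 0% to 60.2%) and 0 of 5 (0% to 52.2%). A difference between pools was thus not detectable at this number of models. Each model counted once whatever its abundance, and the intervals cover counting error only.

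MCL1, a short-lived protective member, fell in HT-1080, and its direction in HEK-293T depended on siHNRNPH1 replicate 1. In HT-1080 its level was 615.5, 566 and 609 CPM with siNegative and 513, 518 and 516.5 CPM with siHNRNPH1. The groups did not overlap, and MCL1 fell by 0.28 on the log2 scale (SE 0.05, adjusted p = 4.18e-04, edgeR). In HEK-293T it stood at 234.0, 235 and 229.7 CPM against 171.6, 260.0 and 266 CPM. Replicate 1 was below all controls and replicates 2 and 3 were above them. The log2 fold change was -0.04 with all libraries (adjusted p = 0.916) and 0.12 (SE 0.03, adjusted p = 0.00101) without replicate 1. The interaction was -0.31 with all libraries (adjusted p = 0.228, edgeR) and -0.45 (adjusted p = 5.96e-06) without replicate 1.

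The short MCL1 form, ENST00000307940, was a minor one everywhere. In HT-1080 it held 0.340%, 0.317% and 0.338% of the gene with siNegative and 0.353%, 0.2955% and 0.416% with siHNRNPH1 (exact permutation p = 0.7), while the main long form ENST00000369026.3 held 67.9% to 75.3% over the 6 libraries. In HEK-293T the short form held 0.181%, 0.1298% and 0.311% against 0.107%, 0.727% and 1.08% (exact permutation p = 0.4). Over the short form and ENST00000369026.3 alone it held 0.706%, 0.5155% and 1.34% against 1.56%, 1.875% and 3.905%, without overlap (exact permutation p = 0.1, the smallest possible). The 1.56% of siHNRNPH1 replicate 1 reflects a low denominator, since ENST00000369026.3 was at 6.74% of the gene there. Its short-form expected count was 19.8, below the 35.5 to 86.4 of the controls. As a share of the whole gene, replicates 2 and 3 of siHNRNPH1 were above every control and replicate 1 below. Without replicate 1 the short transcript was called higher (log2 fold change 2.27, adjusted p = 0.0291, edgeR on transcripts). Most of the HEK-293T reads were assigned to ENST00000678610.1, with 64.5%, 64.1% and 66.1% against 91.0%, 50.3% and 61.8%. The long form ENST00000369026.3 was at 6.74% in siHNRNPH1 replicate 1, far from the 22.9% to 38.1% of the other 5 libraries.

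IsoSeq models placed the middle exon of MCL1 at 150578244 to 150578491 on the minus strand of chromosome 1, 248 bases long. Models that skipped it joined position 150578843 to 150577491. In HEK-293T the skipping junction was seen in 1 of 10 models with siNegative (10.0%, exact Clopper-Pearson 95% interval 0.253% to 44.5%) and in 5 of 16 with siHNRNPH1 (31.25%, 11.02% to 58.7%). In HT-1080 it was seen in 2 of 15 (13.3%) and 2 of 17 models (11.8%). The intervals of the HEK-293T pools overlapped widely, and with 1 pool per group there was no test. Here too each model counted once whatever its abundance, so these are not shares of RNA.

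**Figure D3:**
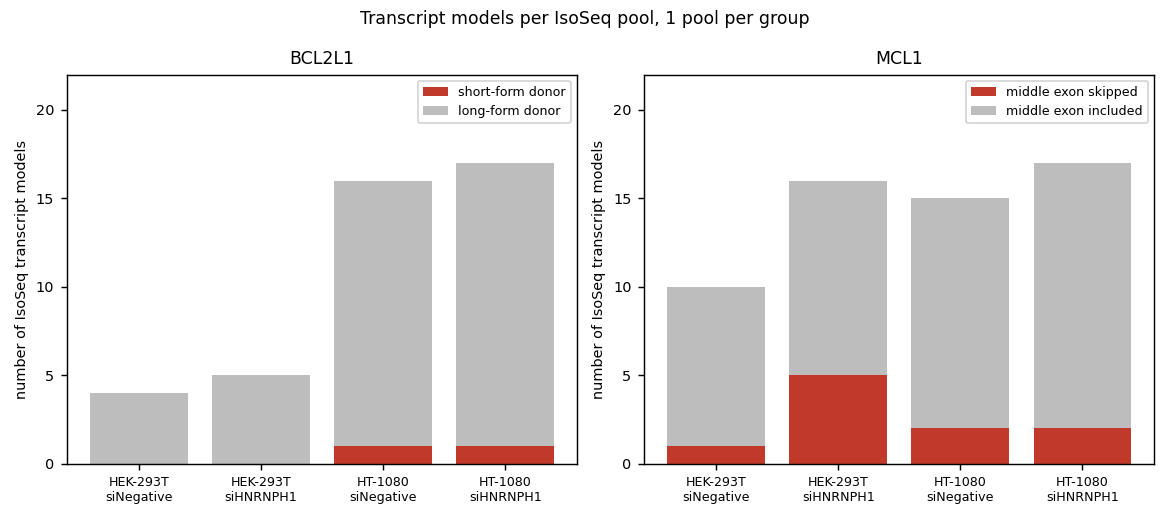
Number of IsoSeq transcript models (vertical axis, 1 pool per group) with the short-form choice in red and the long-form choice in grey, for the BCL2L1 donor (left) and the MCL1 middle exon (right). The short BCL2L1 donor appears in 1 model in each HT-1080 pool and in none in HEK-293T. Models that skip the MCL1 middle exon are most numerous in the HEK-293T siHNRNPH1 pool, with 5 of 16. Each model counts once whatever its abundance.

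BCL2, the founding protective member, fell in HT-1080. Its level there was 4.69, 3.885 and 3.865 CPM with siNegative and 1.99, 1.685 and 1.76 CPM with siHNRNPH1, from 117 to 128 expected counts per control library and 50.0 to 58 after the siRNA. The groups were apart, with a log2 fold change of -1.26 (SE 0.14, adjusted p = 2.92e-05, edgeR). In HEK-293T it was 9.12, 10.16 and 9.32 CPM against 3.42, 8.97 and 9.41 CPM, a change of -0.43 (SE 0.36, adjusted p = 0.492) that shrank to -0.11 (adjusted p = 0.159) without replicate 1. Shares of single BCL2 transcripts varied widely between replicates: ENST00000333681.5, for example, ranged from 3.00% to 70.15% over the HT-1080 siHNRNPH1 libraries. No multi-exon IsoSeq model of BCL2 was found in any of the 4 pools, and single-exon models were not counted at this gene.

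BCL2L2, which encodes the protective BCL-w, was higher in HT-1080 and lower in HEK-293T after siHNRNPH1, and its transcript shares shifted in both lines. In HT-1080 its level was 52.0, 45.2 and 51.15 CPM with siNegative and 64.2, 65.8 and 64.55 CPM with siHNRNPH1. It rose there by 0.32 on the log2 scale (SE 0.06, adjusted p = 6.60e-04, edgeR). In HEK-293T it was 47.2, 47.9 and 46.6 CPM against 27.5, 40.6 and 40.5 CPM. Every siHNRNPH1 library was below every control, with a change of -0.42 (SE 0.16) that did not pass with all libraries (adjusted p = 0.167). Without replicate 1 the change was smaller, -0.28, and passed (SE 0.04, adjusted p = 7.93e-07). The difference between the lines passed with all 12 libraries (interaction 0.67, SE 0.16, adjusted p = 0.0131) and without replicate 1 (0.55, adjusted p = 4.92e-06).

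In shares of the gene, the transcript shift of BCL2L2 had the same form in both lines. The main transcript ENST00000250405.10 held 82.95%, 85.8% and 79.8% of the gene in HEK-293T with siNegative and 52.2%, 49.0% and 48.7% with siHNRNPH1. In HT-1080 its share went from 82.2%, 75.2% and 74.7% to 54.0%, 63.4% and 59.0%, so the groups were apart in both lines. The level of this transcript did not move alike. Its log2 fold change in HEK-293T was -1.12 (adjusted p = 0.0648, edgeR on transcripts), or -1.03 without replicate 1 (adjusted p = 0.00107). In HT-1080 it was -0.02 (adjusted p = 0.915). ENST00000679000.1 took 4.08%, 2.30% and 6.47% of the HEK-293T reads with siNegative and 25.2%, 22.55% and 24.0% with siHNRNPH1. In HT-1080 the same transcript took 5.16%, 3.48% and 10.75% against 23.4%, 11.85% and 17.45%. The transcript ENST00000678311.1 was at 6.31% to 8.09% in the HEK-293T controls and 21.35% to 25.2% after the siRNA, and at 6.46% to 13.7% against 18.7% to 21.2% in HT-1080. In diffSplice, the usage of these 3 transcripts was called in HEK-293T (adjusted p = 2.00e-04, 2.91e-05 and 0.00744) and in HT-1080 (0.00189, 0.00276 and 0.0146). For the gene as a whole the adjusted p was 3.27e-05 in HEK-293T and 0.00181 in HT-1080, and edgeR's diffSpliceDGE gave 0.0544 and 0.158. The calls thus rest on diffSplice, and many usage calls on simulated data fell on unchanged genes in both lines. Without replicate 1 the HEK-293T gene value was 2.67e-10, and the 3 transcripts gave 2.18e-10, 3.75e-09 and 1.76e-07. ENST00000250405.10 and ENST00000679000.1 kept their calls in all 6 fits per line that left out 1 library, and ENST00000678311.1 did not. In HEK-293T its call was lost without siNegative replicate 1, 2 or 3 or siHNRNPH1 replicate 2 (adjusted p = 0.0666 to 0.1004, diffSplice). In HT-1080 it was lost without siNegative replicate 1 or siHNRNPH1 replicate 2 or 3 (adjusted p = 0.0606 to 0.1072).

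Reads of BCL2L2 are shared with BCL2L2-PABPN1, a readthrough gene with common exons, and RSEM divided them by estimation, so the BCL2L2 levels are uncertain to that extent. This gene is not a member and was chosen after its values were seen. In HEK-293T it was at 11.05, 11.7 and 11.5 CPM with siNegative and 4.025, 4.315 and 4.01 CPM with siHNRNPH1, and it fell by 1.496 on the log2 scale (SE 0.11, adjusted p = 0.00502, edgeR), with a log2 fold change of -1.51 without replicate 1. It held 19.0% to 19.8% of the sum of both genes in the controls and 9.01% to 12.8% after the siRNA. In HT-1080 it fell by 0.46 (SE 0.16, adjusted p = 0.0319). Its part in the BCL2L2 changes was not tested, and 0 IsoSeq models in the 4 pools spanned both BCL2L2 and PABPN1.

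IsoSeq models of BCL2L2 were few, and they used several donors at the first junction. The gene lies on the plus strand of chromosome 14, and the junctions compared share an acceptor at 23307192. The donor at 23306894 was used by 3 of 4 models in the HEK-293T siNegative pool and 1 of 4 in the siHNRNPH1 pool, and by 2 of 3 and 1 of 4 in HT-1080. A donor at 23306947 was used by 0 of 4 and then 2 of 4 models in HEK-293T, and by 1 of 3 and then 2 of 4 in HT-1080. These counts are too small for a statement about a difference, and the match of these donors to the Ensembl transcripts above was not established.

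**Figure D4:**
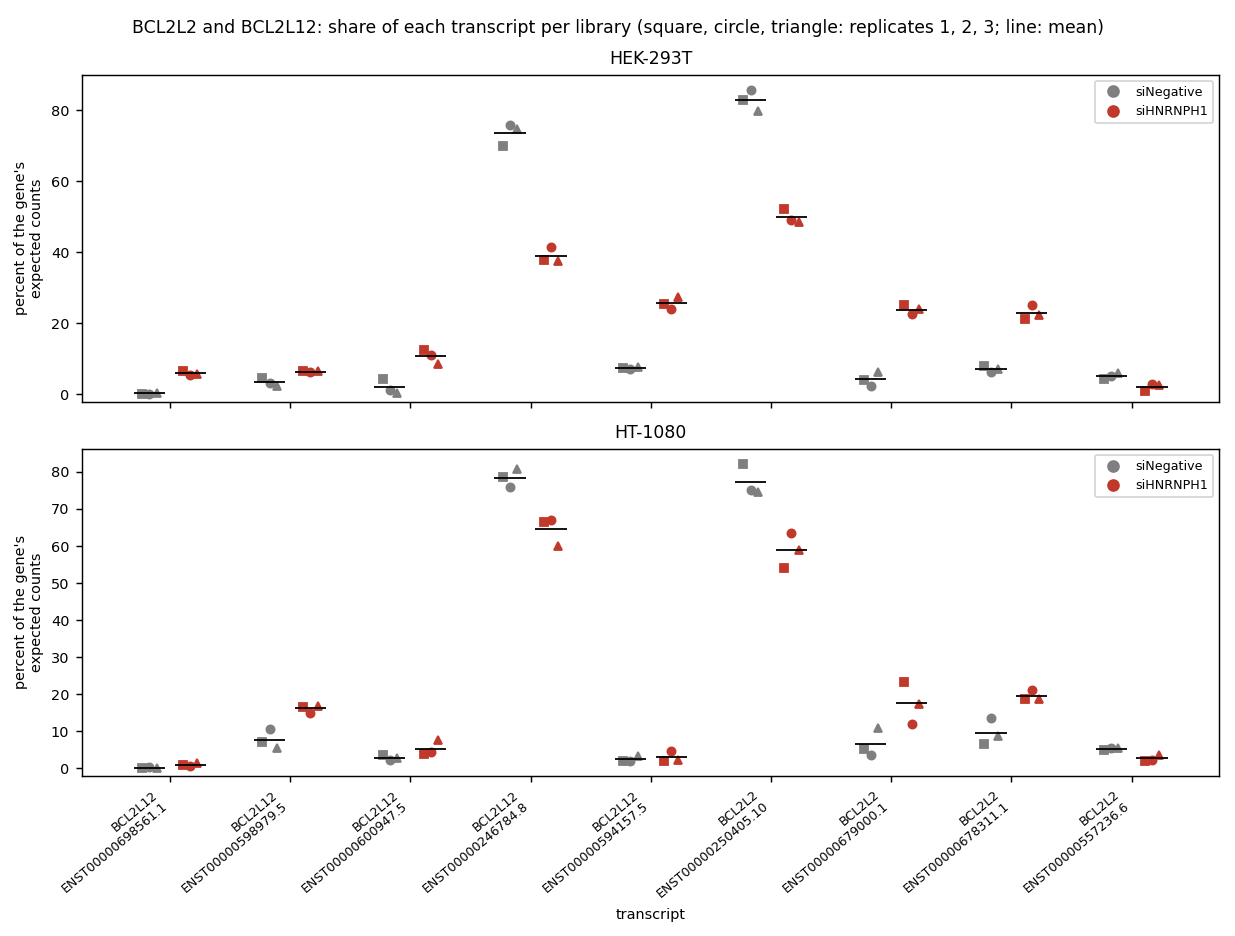
Share of the gene's expected counts held by each named BCL2L12 and BCL2L2 transcript (vertical axes, percent) in HEK-293T (upper panel) and HT-1080 (lower panel); grey is siNegative, red is siHNRNPH1, marks are replicates and lines are means. The red marks of BCL2L2 ENST00000250405.10 and BCL2L12 ENST00000246784.8 lie below all grey marks in both panels, and those of BCL2L2 ENST00000679000.1 and ENST00000678311.1 lie above.

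BAK1, which encodes a pore-forming effector, fell in HT-1080 from 38.2, 43.1 and 39.1 CPM to 26.7, 26.0 and 26.8 CPM. The groups were apart, with a log2 fold change of -0.67 (SE 0.06, adjusted p = 8.75e-06, edgeR). In HEK-293T the controls stood at 67.7, 67.2 and 64.9 CPM and the siHNRNPH1 libraries at 73.2, 44.8 and 43.7 CPM. Replicate 1 was thus above the controls and the other 2 libraries below: the change was -0.32 (SE 0.25, adjusted p = 0.471) with all libraries and -0.65 (SE 0.04, adjusted p = 5.96e-13) without replicate 1. The interaction gave -0.43 (adjusted p = 0.344) and -0.07 (adjusted p = 0.443) without that library. One transcript, ENST00000374467.4, held 96.8% or more of BAK1 in every library.

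BOK, the related effector, was low in HEK-293T, at 0.774, 0.577 and 0.570 CPM with siNegative and 1.06, 0.621 and 0.557 CPM with siHNRNPH1. HT-1080 had 11.5, 13.02 and 9.84 CPM against 9.42, 9.98 and 10.9 CPM, and these ranges overlapped. The log2 fold change was 0.20 in HEK-293T (adjusted p = 0.731, edgeR), or -0.17 without replicate 1 (adjusted p = 0.511), and -0.25 in HT-1080 (adjusted p = 0.0728). In HT-1080 it was called without siNegative replicate 3 (-0.355, adjusted p = 0.0142). All BOK reads were assigned to 1 transcript in every library.

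BCL2L11, which encodes the potent BH3-only protein BIM, depended on replicate 1 in HEK-293T and did not pass the test in HT-1080. The HEK-293T controls were at 45.8, 46.6 and 46.2 CPM, and siHNRNPH1 replicates 2 and 3 were at 80.8 and 83.2 CPM, while replicate 1 was at 39.1 CPM, below the controls. With all libraries the change was 0.51 (SE 0.27, adjusted p = 0.299, edgeR), and without replicate 1 it was 0.77 (SE 0.03, adjusted p = 1.13e-14), the largest rise among the members in that fit. In HT-1080 BCL2L11 stood at 11.65, 10.9 and 13.1 CPM against 11.7, 12.4 and 13.8 CPM (0.02, SE 0.09, adjusted p = 0.850). The interaction gave -0.55 (adjusted p = 0.216), or -0.80 (SE 0.09, adjusted p = 1.95e-06) without replicate 1.

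In the IsoSeq pools, BCL2L11 had 6 models in the HEK-293T control and 15 after siHNRNPH1, and 1 in each HT-1080 pool. Over all loci, the HEK-293T pools held 64705 models with siNegative and 94847 with siHNRNPH1, and those of HT-1080 held 72186 and 68078. Model counts do not measure abundance. Without replicate 1, the BCL2L11 transcripts ENST00000393256.8, ENST00000620862.4 and ENST00000621302.4 were called higher in HEK-293T (log2 fold changes of 0.52, 1.01 and 1.38, edgeR on transcripts). The share of ENST00000393256.8, the largest in the controls, was 45.3%, 51.2% and 49.4% in the controls and 30.9%, 42.7% and 38.8% after the siRNA, without a usage call (diffSplice adjusted p = 0.991, or 0.0696 without replicate 1). ENST00000620862.4 held 33.0%, 19.25% and 28.4% against 52.9%, 30.0% and 32.8%, and was the larger of the pair in siHNRNPH1 replicate 1. The gene's usage as a whole was not called in either line.

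BID, a BH3-only protein that links death receptors to mitochondria, fell in HT-1080 and was higher in every HEK-293T siHNRNPH1 library. In HT-1080 it fell from 39.0, 45.4 and 38.4 CPM to 32.5, 31.7 and 31.6 CPM (log2 fold change -0.43, SE 0.07, adjusted p = 5.43e-04, edgeR). In HEK-293T the controls were at 19.6, 20.3 and 18.9 CPM and the siHNRNPH1 libraries at 45.1, 25.6 and 24.0 CPM. All 3 were above the controls, with a change of 0.68 (SE 0.29, adjusted p = 0.204) or, without replicate 1, 0.28 (SE 0.05, adjusted p = 2.84e-05). The interaction was -1.18 with all libraries (SE 0.33, adjusted p = 0.0305) and -0.76 without replicate 1 (adjusted p = 2.80e-06).

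BAD, a BH3-only protein controlled by phosphorylation, was at 7.30, 7.73 and 6.965 CPM in the HEK-293T controls and at 20.8, 7.76 and 6.21 CPM with siHNRNPH1. Only replicate 1 lay clearly outside the controls, and the change was 0.66 (SE 0.49, adjusted p = 0.447, edgeR) with it and -0.12 (adjusted p = 0.216) without it. In HT-1080, BAD fell from 36.5, 44.5 and 37.9 CPM to 34.6, 34.6 and 34.9 CPM (-0.26, SE 0.08, adjusted p = 0.0133). Without siNegative replicate 2, the highest control, the change was -0.17 (adjusted p = 0.00183, edgeR). Its main transcript ENST00000309032.8 held 84.3% to 91.3% in HEK-293T and 75.3% to 80.6% in HT-1080.

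BCL2L12, a divergent relative whose role in apoptosis is less settled, had the lowest fold change of the members in HT-1080, next to BCL2. Its level went from 34.1, 42.0 and 34.5 CPM to 15.55, 16.45 and 15.3 CPM, with a log2 fold change of -1.29 (SE 0.09, adjusted p = 1.38e-06, edgeR). In HEK-293T it was 35.2, 32.5 and 34.5 CPM against 52.0, 25.35 and 23.4 CPM. Replicate 1 again lay above the controls and replicates 2 and 3 below: the change was -0.03 (SE 0.35, adjusted p = 0.967) with all libraries and -0.54 (SE 0.05, adjusted p = 1.13e-09) without replicate 1. The interaction was -1.35 (SE 0.41, adjusted p = 0.0409), or -0.80 (adjusted p = 1.29e-05) without replicate 1.

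Unlike its level, the transcript make-up of BCL2L12 was alike in all 3 HEK-293T siHNRNPH1 libraries. The main transcript ENST00000246784.8 held 70.0%, 76.0% and 74.7% with siNegative and 37.8%, 41.6% and 37.5% with siHNRNPH1 (diffSplice adjusted p = 0.00310). ENST00000594157.5 took 7.58%, 7.27% and 7.79% against 25.4%, 24.1% and 27.5%, with no overlap and an adjusted p of 0.0929. ENST00000600947.5 went from 4.22%, 1.29% and 0.387% to 12.6%, 11.1% and 8.47% (adjusted p = 0.005625), and ENST00000698561.1 from 0.264%, 0.195% and 0.452% to 6.54%, 5.49% and 5.69% (adjusted p = 0.0353). In HT-1080 the main transcript moved less, from 78.7%, 76.0% and 80.75% to 66.5%, 67.0% and 60.0% (adjusted p = 0.00251), and ENST00000598979.5 went from 7.03%, 10.5% and 5.52% to 16.6%, 14.9% and 16.9% (adjusted p = 0.00332). ENST00000594157.5, which took 24.1% to 27.5% of the gene in HEK-293T after the siRNA, stood at 2.01% to 4.63% in all 6 HT-1080 libraries. For the gene as a whole, diffSplice gave adjusted p of 0.00631 (HEK-293T) and 0.00266 (HT-1080). The other tool, diffSpliceDGE, gave 0.00916 and 1.00, so the HT-1080 call rests on diffSplice. Without replicate 1 the HEK-293T gene value was 3.53e-10, and ENST00000594157.5 was called (5.98e-07) beside ENST00000246784.8 (1.43e-10), ENST00000600947.5 (8.95e-07) and ENST00000698561.1 (6.54e-04). The HEK-293T call of ENST00000246784.8 was lost without siNegative replicate 2 (0.1138) or replicate 3 (0.0842), and so was that of ENST00000600947.5 (0.0942 and 0.232). That of ENST00000698561.1 was lost without any 1 control library (0.163 to 0.205), and the HT-1080 call of ENST00000598979.5 without siHNRNPH1 replicate 1 (0.0527).

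At the transcript level, 0 of the 63 member transcripts tested changed in HEK-293T, where 0.248% of 89488 transcripts did (edgeR). Of the 63, 13 had an unadjusted p under 0.05, and the share of all transcripts below that value is not given here. Without replicate 1, 13 of 66 were called beside 16.0% of all transcripts. In HT-1080, 6 of 48 were called beside 16.1% of all: BCL2L1 ENST00000307677.5 and BCL2L2 ENST00000678311.1 rose, and BAK1 ENST00000374467.4, BCL2L12 ENST00000246784.8, BID ENST00000622694.5 and MCL1 ENST00000464132.2 fell. Transcript usage was called by limma diffSplice for 2 of 9 members in each line, BCL2L2 and BCL2L12, where 9.59% of 13018 genes were called (HEK-293T) and 21.2% of 10752 (HT-1080). By edgeR's diffSpliceDGE, 1 member was called in HEK-293T and 0 in HT-1080, where 1 had an unadjusted p under 0.05. The share of all genes called by diffSpliceDGE is not given here, so these counts have no background beside them. Without replicate 1, MCL1 joined BCL2L2 and BCL2L12 among the diffSplice calls in HEK-293T (3 of 9, adjusted p = 0.00572), beside 41.6% of all genes. The counts also rested on single libraries elsewhere: usage calls in HEK-293T dropped to 1 without siNegative replicate 2 or replicate 3, and transcript calls in HT-1080 to 3 without siHNRNPH1 replicate 1 or replicate 2.

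**Figure D5:**
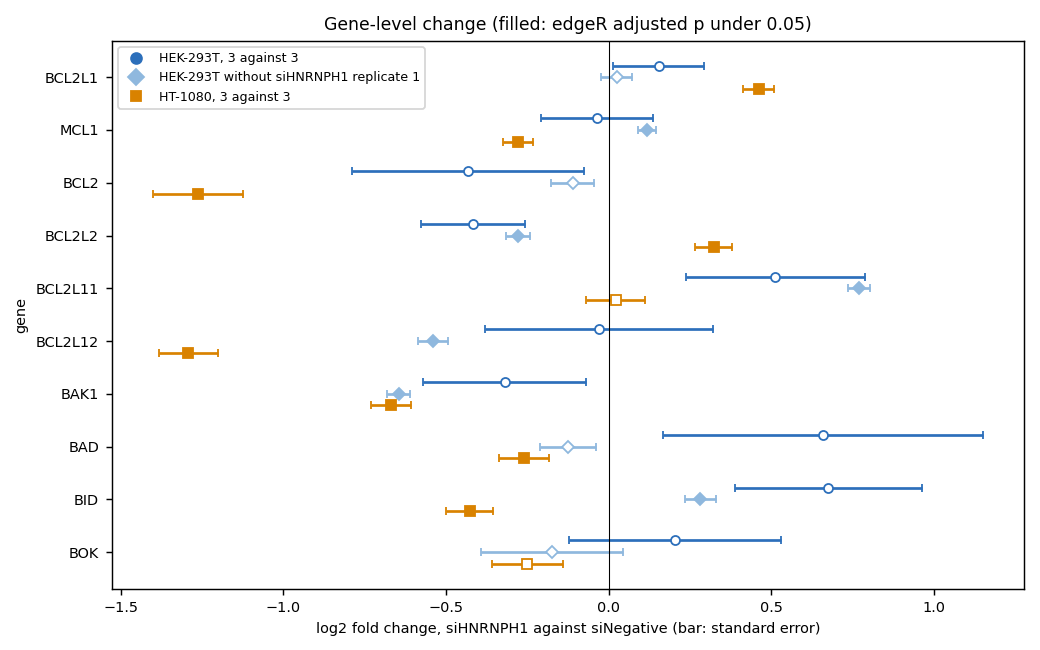
Log2 fold change of each member (horizontal axis, siHNRNPH1 against siNegative) with its standard error in HEK-293T, in HEK-293T without siHNRNPH1 replicate 1, and in HT-1080; filled marks passed the test. BCL2L2 and BID lie on opposite sides of 0 in the 2 lines, BAK1 lies near -0.65 in HT-1080 and in HEK-293T without replicate 1, and the bars of the full HEK-293T fit are the widest.

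Between the lines, 3 of 10 members differed in response with all 12 libraries (BCL2L2, BCL2L12 and BID), beside 19.0% of 21276 genes (edgeR interaction). Without HEK-293T siHNRNPH1 replicate 1, 7 of 10 differed, beside 49.0% of all genes. BCL2L1 (0.39, adjusted p = 1.12e-04), MCL1 (-0.45, 5.96e-06), BCL2 (-1.20, 5.03e-06) and BCL2L11 joined them, while BAK1, BAD and BOK did not pass in either fit. BID and BCL2L12 lost their call when any 1 library of HT-1080 or of the HEK-293T controls was left out, with adjusted p of 0.0562 to 0.0798 for BID and 0.0696 to 0.1025 for BCL2L12. They kept it when any siHNRNPH1 library of HEK-293T was left out.

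Of 12 further BCL2 family genes, 9 were tested in each line. In HT-1080, 7 passed: BBC3, BCL2L13 and BNIP3L rose and BAX, BCL2A1, BNIP3 and PMAIP1 fell, with a list median of -0.40 beside 0.01 over all genes. The 7 of 9 lie near the 65.3% of all genes called in that line. BCL2A1, a protective member, went from 207 to 278 expected counts per control library to 16 to 26 after the siRNA (log2 fold change -3.52, SE 0.19, adjusted p = 2.34e-07, edgeR) and held 3 counts or fewer in every HEK-293T library. BNIP3, a mitophagy receptor, fell by 1.13 in HT-1080 (SE 0.05, adjusted p = 7.45e-08). In HEK-293T, 0 of 9 passed with all libraries (edgeR, 4 with an unadjusted p under 0.05) and 7 of 9 without replicate 1, beside 10.0% and 61.8% of all genes. BAX, the partner effector of BAK, was there at 70.1, 69.6 and 68.8 CPM against 157.8, 82.4 and 76.2 CPM (0.59, adjusted p = 0.309, or 0.13, adjusted p = 0.00255, without replicate 1). The BH3-only gene BIK had the largest value of the list in HEK-293T, 1.64 (adjusted p = 0.0777), from 37 to 52 control counts, and was called without replicate 1 at 1.085 (adjusted p = 5.00e-04). BBC3, which encodes PUMA, had 0.90 (adjusted p = 0.144), or 0.47 with a call without replicate 1 (adjusted p = 3.30e-04).

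Downstream of mitochondria, 14 of 19 genes passed in HT-1080, 4 higher and 10 lower, near the 65.3% of all genes called, with a list median of -0.27 beside 0.01 over all genes. BIRC3, an inhibitor-of-apoptosis gene, fell from 42.5, 36.3 and 43.6 CPM to 0.411, 0.337 and 0.492 CPM (log2 fold change -6.69, SE 0.14, adjusted p = 3.46e-09, edgeR). XIAP, the caspase inhibitor, fell by 1.10 (adjusted p = 1.42e-07), and CASP9, the apoptosome caspase, rose by 1.00 (adjusted p = 6.71e-06). In HEK-293T 1 of 19 passed, beside 10.0% of all genes, and 12 of 19 without replicate 1, beside 61.8%. DFFA, which encodes the inhibitor of the apoptotic nuclease, fell by 1.14 (SE 0.14, adjusted p = 0.00952), and its log2 fold change was -1.05 without replicate 1. XIAP there was at 17.9 CPM in siHNRNPH1 replicate 1 and at 55.9 and 58.9 CPM in the other replicates, beside 59.0 to 61.8 CPM in the controls (-0.49, adjusted p = 0.498). Without replicate 1 its change was -0.13 and passed (adjusted p = 0.00381). The nuclease gene ENDOG had 0.48 (adjusted p = 0.503) with all libraries and turned to -0.14 (adjusted p = 0.0649) without replicate 1.

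Of 14 genes known as regulators of BCL2L1 splicing, 11 of the 13 tested in HT-1080 were called lower and none higher. Of all genes, 65.3% were called there in either direction, and the share called lower is not given here. The list median was -0.38 beside 0.01 over all genes. HNRNPH1 is the target of the siRNA, so its place in that count was set by the design, and it fell by 1.49 (SE 0.04, adjusted p = 6.76e-09, edgeR). Its paralog HNRNPF went from 291.5, 293 and 287 CPM to 172, 175 and 165.0 CPM (-0.83, SE 0.04, adjusted p = 1.76e-07), and SRSF1, an SR protein, fell by 0.70. In HEK-293T only HNRNPH1 passed with all libraries (-1.76, SE 0.20, adjusted p = 0.00939), beside 10.0% of all genes, and 13 of 14 passed without replicate 1, 12 of them lower, beside 61.8%. HNRNPF there was at 328, 329 and 324 CPM against 265.6, 322 and 316 CPM (-0.15, adjusted p = 0.468, or -0.09 with a call at 0.00565 without replicate 1), and its difference between the lines was -0.76 (adjusted p = 7.21e-04). RBM25 and SRSF1 had the next lowest values in HEK-293T, -0.48 (adjusted p = 0.434) and -0.44 (adjusted p = 0.144). Both were called lower without replicate 1, at -0.16 (adjusted p = 2.53e-05) and -0.31 (adjusted p = 3.08e-09).

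Over the 12 libraries, the 5 genes whose log2(CPM + 1) followed that of BCL2L1 most closely were SMOX (Pearson r of 0.9992), TNS2 (0.999), FAM20C (0.999), BCL3 (0.9988) and LRCH4 (0.9984), among 10408 genes with a mean of at least 10 CPM. The 12 libraries fall into 2 lines that differ in BCL2L1 level, and these values are a description with no test. Among members, BAD (0.931) and MCL1 (0.918) ran with BCL2L1 over the 12 libraries, and BCL2L11 (-0.943) and BAK1 (-0.864) ran against it. The siRNA response within HT-1080 was different for BAD and MCL1: both fell, as did BAK1, while BCL2L1 rose. BCL2L11 was not called there.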

How the data were processed

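Short-read libraries (12) and IsoSeq pools (4) were assigned to groups from their labels. For each transcript the authors deposited expected counts from short reads, made with RSEM per the submitters' processing notes, which name GRCh38.p13; other steps are not given in the sources used here. They are not scaled for depth or length. The deposited IsoSeq files hold exon positions of collapsed models without read counts.

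Expected counts were summed per gene, rounded, filtered with filterByExpr, scaled by TMM and tested with edgeR 4.0.16 (robust quasi-likelihood, two-sided) per line on 6 libraries, and as a cell line by siRNA interaction on 12. Transcripts were tested likewise, and usage with diffSplice of limma 3.58.1. Benjamini-Hochberg adjustment covered whole tables, threshold 0.05. Depth was 107.7 M to 121 M expected counts in HEK-293T and 27.3 M to 32.65 M in HT-1080. No 2 libraries of a group agreed within sampling noise (lowest chi-square per degree of freedom 1.74). Named transcripts held at least 5% of a gene in a group mean or were the known short forms. From each list, genes called in both lines and up to 3 with the largest change per line were to be named. The members, lists and naming rules were chosen with earlier results of these data known. Steps were tested on simulated data. There the transcript test had little power in HEK-293T, and many usage calls fell on unchanged genes in both lines. Alternatives were other scaling, no filter, DESeq2 1.42.0, diffSpliceDGE, a replicate block and leaving out each library.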

Additional observations from a re-analysis of the deposited data

Results flagged for a closer look

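The response to siHNRNPH1 differed between HT-1080 and HEK-293T in the interaction test for 3 members. For BCL2L2 the log2 fold change was 0.673 higher in HT-1080, where the gene rose, than in HEK-293T, where all siHNRNPH1 libraries were below the controls. For BID the difference was -1.18, with every HT-1080 siHNRNPH1 library below its controls and every HEK-293T one above. For BCL2L12 it was -1.35, and in HEK-293T replicate 1 lay above the controls while replicates 2 and 3 lay below them. Without that replicate the differences were 0.55, -0.76 and -0.80.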

How the results depend on the processing

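Leaving out single libraries moved most counts. Members called in HEK-293T ranged from 0 to 6, with 6 without siHNRNPH1 replicate 1, and member transcripts there from 0 to 13. HEK-293T usage calls ranged from 1 to 3. HT-1080 gave 8 to 9 members, 3 to 8 transcripts and 2 to 3 usage calls, and the interaction 1 to 7 members, with 7 without HEK-293T siHNRNPH1 replicate 1. BOK was called in HT-1080 without siNegative replicate 3 (-0.355, edgeR adjusted p = 0.0142). RSEM's division of reads between overlapping transcripts limits every share, and the number of IsoSeq models limits the junction shares. The short-form difference of BCL2L1 in HEK-293T ranged from -0.92 to 0.27 percentage points and that of MCL1 in HT-1080 from -0.00701 to 0.0532. With all 12 libraries sharing 1 spread, 2 members were called in HEK-293T and 4 in HT-1080. With diffSpliceDGE, usage calls were 1 in HEK-293T and 0 in HT-1080. With transcripts of at least 5% only, HT-1080 had 3. Shares over all genes or transcripts are given only for the main fits and the fit without HEK-293T siHNRNPH1 replicate 1. The other counts here therefore have no background beside them. Counting distinct junction chains gave 50.0% MCL1 skipping in HT-1080 siNegative, where 25 MCL1 models held only 4 distinct chains. Why the other results moved between settings was not tested.

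Signs also turned for single genes over the libraries left out: in HEK-293T, log2 fold changes ranged from -0.1383 to 0.12 for MCL1, from -0.5403 to 0.18 for BCL2L12, from -0.12 to 0.9648 for BAD and from -0.17 to 0.3814 for BOK, and in HT-1080 from -0.04466 to 0.09197 for BCL2L11. With all 12 libraries, MCL1 gave 0.02042 and BCL2L12 0.04552 in HEK-293T.

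Deviations of same-numbered libraries correlated weakly and always positively: 0.123, 0.119 and 0.0346 in HEK-293T, and 0.025, 0.115 and 0.0604 in HT-1080. Pairs with different numbers lay between -0.1266 and 0.08721 (HEK-293T) or -0.1254 and 0.05993 (HT-1080), and most were negative. Each deviation was taken from the mean of its own group, so positive same-numbered values force negative ones among the other pairs. The negative values are thus no separate evidence of pairing. Whether equal numbers mark libraries handled together was not tested. With the replicate block, members called were 0 in HEK-293T, 8 in HT-1080 and 1 in the interaction, member transcripts 0 and 4, and usage calls 2 and 2. Shares over all genes or transcripts are not given for that setting.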
